A study of Mus musculus with 12 samples.

Results

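The proteasome is the multi-subunit protease that degrades proteins tagged with ubiquitin, and the results below concern the genes of its constitutive subunits in BV2 cells, an immortalised mouse microglial line. Members were the protein-coding genes whose symbols begin with Psma, Psmb, Psmc or Psmd followed by a number, leaving out the inducible immunoproteasome genes *Psmb8*, *Psmb9* and *Psmb10*. The rule used no expression value and gave 36 of the 55487 genes counted: 8 of the alpha ring, 8 of the beta ring, 6 base ATPases, 3 base scaffold or receptor genes, 8 of the lid and 3 base assembly chaperones. The last 3, *Psmd5*, *Psmd9* and *Psmd10*, match the symbol rule although their products help to build the base and are not subunits of the finished particle. RNA was sequenced from BV2 cells in 4 groups of 3 libraries: high glucose with CD200Fc at 50 ng/mL (HG+CD200Fc), high glucose (HG), normal glucose with CD200Fc at 50 ng/mL (NG+CD200Fc) and normal glucose (NG). CD200Fc is the extracellular part of CD200, a ligand that dampens microglial activation through its receptor, fused to an antibody Fc part. The labels give no glucose concentration, no exposure time and no Fc control.

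In the core particle, alpha subunits form the outer rings that gate entry, and beta subunits form the inner rings, of which Psmb5, Psmb6 and Psmb7 carry the proteolytic sites. The regulatory particle consists of a base, whose ATPases unfold substrates and thread them into the core, and a lid, whose Psmd14 removes ubiquitin chains. Subunit genes are known to rise together when the proteasome is inhibited, through the transcription factor Nrf1 (*Nfe2l1*), and microglia replace catalytic subunits by immunoproteasome forms after interferon stimulation.

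Libraries held 21454087 to 31905649 counts, of which the members took 0.408 to 0.512%. HG replicate 2 had 1.49% of its counts in nuclear ribosomal RNA genes, against 0.119% or less in the other 11 libraries. The labels name BV2 as the source while the treatment protocol describes sorted cells from retina. Of 14 microglia and macrophage markers, 13 averaged at least 1 CPM (the usual depth-normalised count, scaled here by the TMM method), and *Sall1*, a factor of resident microglia, had 1 count in all. *Cx3cr1* averaged 2.68 CPM, *P2ry12* 1.68 CPM and *Tmem119* 13.8 CPM, against 1470.0 CPM for *Cd68*. The summed level of the list was 4053 to 4299 CPM in HG+CD200Fc, 4567 to 5150 in HG, 4351 to 4520 in NG+CD200Fc and 4603 to 4796 in NG. Single markers in this sum went different ways. The mean of *Adgre1* was 729 CPM in HG and 418 CPM in NG, and that of *Cd68* was 1436 CPM in HG and 1639 CPM in NG. Of 14 retinal markers none was at 0 and 6 were under 1 CPM, and the sum of the list was 185 to 198 CPM in HG+CD200Fc, 186 to 204 in HG, 185 to 197 in NG+CD200Fc and 191 to 203 in NG. The part of these differences in the results below was not tested, and in bulk RNA fewer cells of a type and less RNA per cell cannot be told apart. Whether replicate libraries are from independent cultures is not stated, and the p-values therefore cover library-to-library spread alone, possibly of technical origin.

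Of the 36 members 34 were tested. *Psma8*, a testis form of an alpha subunit, had 1 count in HG+CD200Fc replicate 1 and none in the other 11 libraries. *Psmb11*, the catalytic subunit of the thymus, had 9 counts in HG+CD200Fc replicate 2, 2 in HG replicate 1, 3 and 1 in NG+CD200Fc replicates 1 and 3, and 1 in NG replicate 1. The lowest value of the other 34 in any library was 31.9 CPM, for *Psmd9*. Per kb of exon their mean level had a median of 43.1 CPM, against 3.13 CPM per kb over all 19182 genes tested. *Psmb6*, the caspase-like catalytic subunit, was highest at 150.3 CPM per kb, followed by *Psmb4* at 106 and the lid gene *Psmd8* at 100.2. The assembly chaperones *Psmd5* and *Psmd9* were lowest, at 8.68 and 5.05 CPM per kb. Within a member, the highest of the 12 libraries exceeded the lowest by a factor of 1.12 for the ATPase gene *Psmc2* to 1.64 for the beta subunit gene *Psmb3*.

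**Figure D1:**
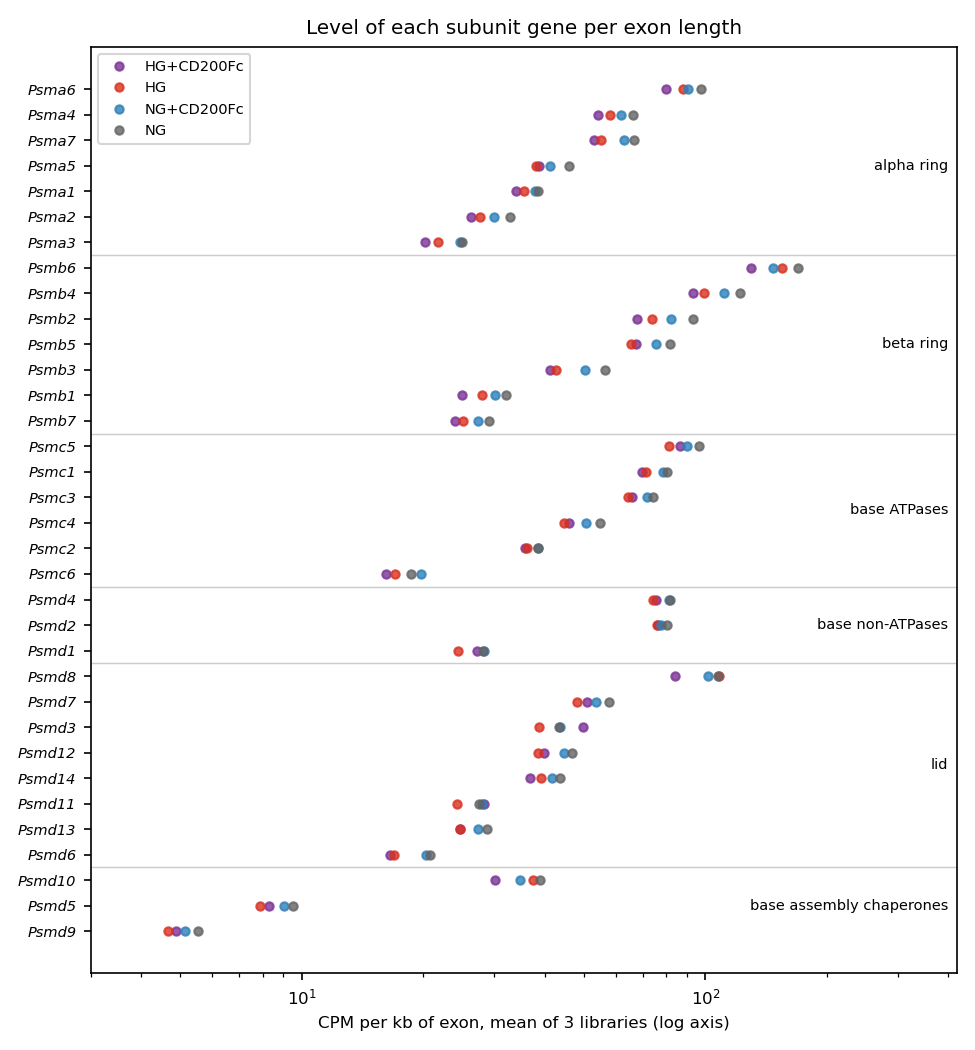
Level of each tested member in CPM per kb of exon on a log axis, as the mean of 3 libraries in HG+CD200Fc, HG, NG+CD200Fc and NG, with members grouped by role and sorted by level. *Psmb6* is highest and *Psmd9* lowest, and in most rows the HG+CD200Fc and HG points lie left of the NG+CD200Fc and NG points.

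The first comparison asked what high glucose alone did to the subunit genes. In HG against NG the proteasome genes were lower as a group by a small amount: 21 of 34 members passed as lower and none as higher, by edgeR's quasi-likelihood test with Benjamini-Hochberg adjusted p under 0.05 over all genes. Among all genes tested 12.9% passed as lower, 11.7% as higher and 24.6% in either direction. The changes of the 21 members ran from -24.2 to -10.5%. Over the 34 tested members the median log2 fold change was -0.20, against 0.02 over all genes, and 33 of 34 lay below zero. The 3 HG libraries were all below the 3 NG libraries in 21 members, against 19.8% of all genes, and all above in 0 members, against 19.9%. The core particle had 8 of 14 tested genes lower, the base and lid together 11 of 17, and the assembly chaperones 2 of 3.

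The HG libraries did not contribute equally. The median log2 ratio of the tested members to their NG mean was -0.089 in HG replicate 1, -0.30 in HG replicate 2 and -0.25 in HG replicate 3. Without HG replicate 2 the count of lower members was 10, without NG replicate 1 it was 12, and without HG replicate 1 it was 28 with a median of -0.29. In the same order 1832 of 19780, 1879 of 19945 and 2942 of 19827 genes were lower, against 2476 of 19182 with all libraries. Without HG replicate 2, 33 of 34 members still lay below zero, with a median of -0.17. HG replicate 2 is the library with 1.49% nuclear ribosomal RNA counts, and it stood apart from its replicates. The chi-square per degree of freedom over genes was 36.2 against HG replicate 1 and 25.4 against HG replicate 3, while the other replicate pairs of all groups had 3.63 to 13.2. The part of that library's ribosomal RNA content in the count of members was not tested. The split of all genes into higher and lower moved with the scaling. With upper quartile scaling 2490 genes were higher and 2126 lower in HG, and 18 members were lower. With a trend of expression on exon length and GC content removed per library, 1864 genes were higher and 3533 lower in HG, against 2244 and 2476 without the correction, and 26 members were lower with a median of -0.24.

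**Figure D2:**
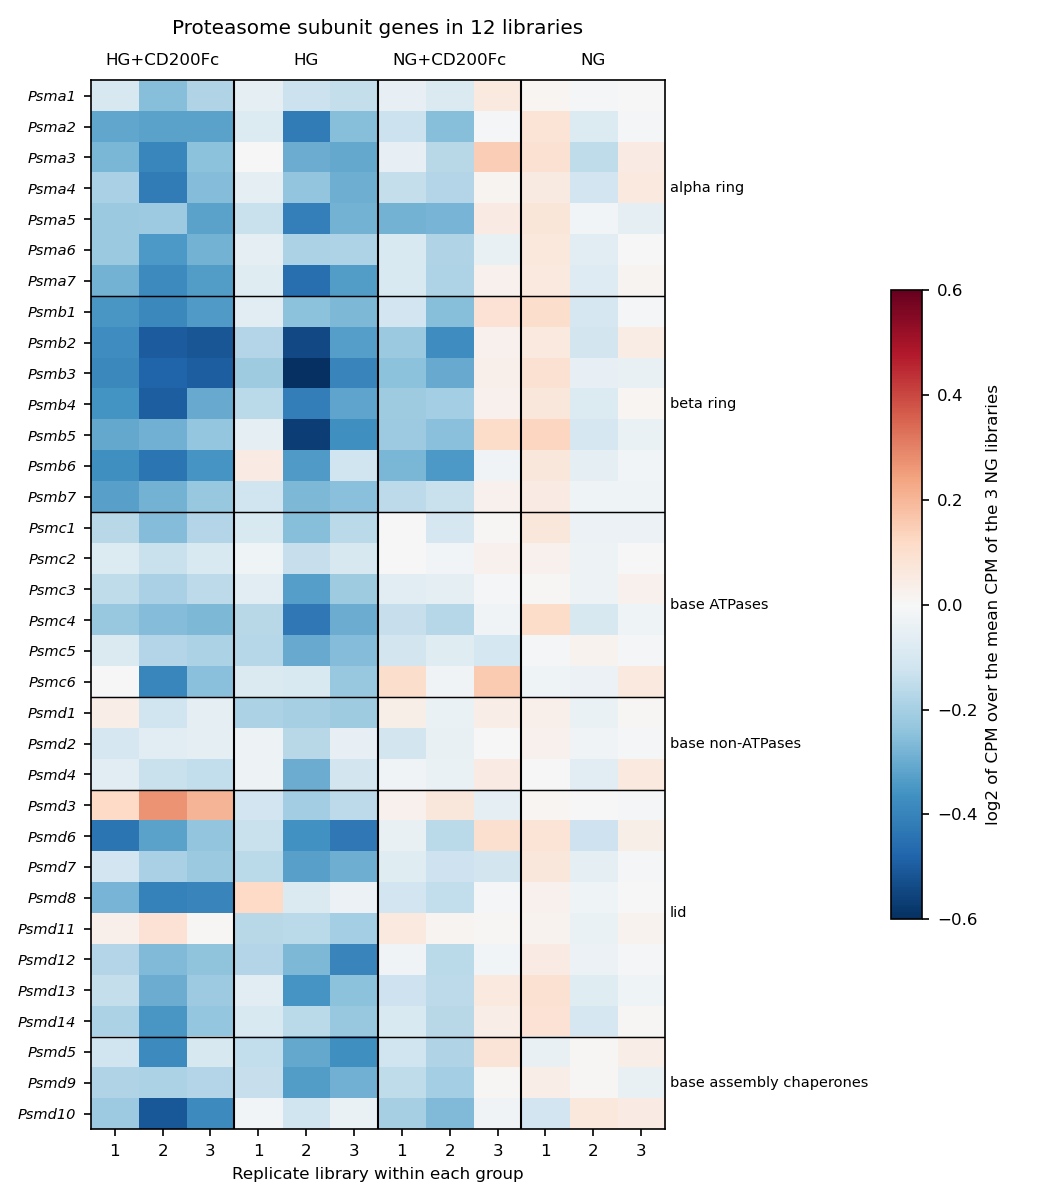
log2 of the CPM of each tested member over its mean in the 3 NG libraries, with 1 column per library in the order HG+CD200Fc, HG, NG+CD200Fc and NG, and members grouped by role. Blue cells are below the NG mean and fill most of HG+CD200Fc and HG replicates 2 and 3, HG replicate 1 is paler, and *Psmd3* in HG+CD200Fc and *Psmd8* in HG replicate 1 lie above the NG mean.

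Promoter sequence was available for 29 of the 36 members (31 windows, from 250 bases before to 50 after the start, RefSeq, GRCm38.p6). The antioxidant response element core TGACNNNGC, the kind of site that Nrf1 and Nrf2 bind, was searched on both strands and was present in 5 of the 31 windows (16.1%), against 12.4% of 32851 windows over all genes. The CCAAT box was present in 12 of 31 (38.7%), against 37.4% of all windows, and no match of one motif overlapped a match of the other. A match is a stretch of letters and not a shown binding site. The 120 bases before the start are printed for the member with the largest fall in HG, *Psmb3* at chr11:97703314-97703433 (plus strand), for 3 members with the element close to the start, *Psmb5* at chr14:54617996-54618115 (minus strand), *Psmb6* at chr11:70525237-70525356 (plus strand) and *Psmd9* at chr5:123228070-123228189 (plus strand), and for *Psmd8* at chr7:29180674-29180793 (minus strand), which holds neither motif. Capitals mark the CCAAT boxes in *Psmb3* and the TGACNNNGC matches in *Psmb5*, *Psmb6* and *Psmd9*, and all are written on the strand of the gene.
Psmb3: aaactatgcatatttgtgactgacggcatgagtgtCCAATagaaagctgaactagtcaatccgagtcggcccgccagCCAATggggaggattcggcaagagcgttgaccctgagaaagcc
Psmb5: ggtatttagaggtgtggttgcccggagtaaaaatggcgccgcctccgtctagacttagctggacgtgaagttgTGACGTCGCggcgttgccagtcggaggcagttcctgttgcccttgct
Psmb6: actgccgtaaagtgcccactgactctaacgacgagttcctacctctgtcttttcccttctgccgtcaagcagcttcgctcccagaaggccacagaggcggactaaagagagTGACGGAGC
Psmd9: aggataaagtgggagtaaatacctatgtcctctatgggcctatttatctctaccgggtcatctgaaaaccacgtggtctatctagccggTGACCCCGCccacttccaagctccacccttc
Psmd8: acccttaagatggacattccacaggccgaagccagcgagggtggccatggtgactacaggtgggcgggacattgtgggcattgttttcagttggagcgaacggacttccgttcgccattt
Of these 5 genes *Psmb3* and *Psmd9* were lower in HG, while *Psmb5*, *Psmb6* and *Psmd8* did not pass, as described with their values below.

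Of the 7 tested alpha ring genes 4 were lower in HG than in NG: *Psma2*, *Psma4*, *Psma5* and *Psma7*. Library values in CPM are given from replicate 1 to replicate 3. *Psma7* had 168, 157 and 162 CPM in HG+CD200Fc, 194, 149.7 and 162 in HG, 192, 179.7 and 208 in NG+CD200Fc, and 213, 194 and 207 in NG. The HG and NG ranges touched, with HG replicate 1 just above NG replicate 2. The *Psma7* log2 fold change was -0.28 (SE 0.074, adjusted p = 0.00804) in HG against NG and -0.25 (SE 0.074, adjusted p = 0.0392) in HG+CD200Fc against NG+CD200Fc. The first call was lost without HG replicate 2 (adjusted p = 0.0529), and the second was lost without any of the HG+CD200Fc libraries, NG+CD200Fc replicate 1 or 3 or NG replicate 3 (adjusted p up to 0.207). *Psma5* had 52.1, 52.2 and 48.6 CPM in HG+CD200Fc, 55.4, 45.7 and 49.9 in HG, 49.9, 50.1 and 62.9 in NG+CD200Fc, and 63.9, 60.0 and 58.4 in NG. All HG values of *Psma5* lay below all NG values (-0.27, SE 0.081, adjusted p = 0.0157), and NG+CD200Fc replicates 1 and 2 were as low as HG. *Psma3* had 80.1, 73.9 and 81.6 CPM in HG+CD200Fc, 97.2, 78.7 and 78.2 in HG, 93.7, 86.2 and 107 in NG+CD200Fc, and 103, 87.2 and 100.2 in NG. *Psma3* overlapped between HG and NG (-0.19, adjusted p = 0.131), and its value in HG+CD200Fc against NG+CD200Fc was -0.29 (SE 0.090, adjusted p = 0.0564). *Psma6* had 103, 94.6 and 98.8 CPM in HG+CD200Fc, 115, 105 and 106 in HG, 113, 106 and 116 in NG+CD200Fc, and 126, 115 and 120.3 in NG. *Psma6* gave -0.14 in HG against NG (adjusted p = 0.0791) and -0.14 in HG+CD200Fc against HG (adjusted p = 0.116), neither past the threshold. *Psma2* (-0.24, adjusted p = 0.0136) and *Psma4* (-0.19, adjusted p = 0.0494) passed in HG against NG. In HG against NG the *Psma2* call was lost without HG replicate 2 or NG replicate 1 (adjusted p up to 0.11), and the *Psma5* call was lost without HG replicate 2 or NG replicate 1 (adjusted p up to 0.105). The *Psma4* call was lost in 7 of 21 alternatives, without HG+CD200Fc replicate 3, HG replicate 2 or 3 or NG replicate 1 or 3, or with upper quartile scaling or a stricter filter (adjusted p up to 0.172). *Psma1*, the remaining gene, did not pass (-0.11, adjusted p = 0.177). *Psma4* and *Psma5* share 114 and 60 exon bases with genes on the other strand, and whether counting used strand is not given in the sources used here.

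Of the 7 tested beta ring genes *Psmb2*, *Psmb3*, *Psmb4* and *Psmb7* were lower in HG than in NG, and the ring had the lowest median of the 6 roles (-0.29). *Psmb3* had 99.0, 92.8 and 91.9 CPM in HG+CD200Fc, 112, 84.4 and 98.4 in HG, 109, 105 and 132 in NG+CD200Fc, and 138, 125 and 126 in NG. Every HG library was below every NG library, with HG replicate 2 the lowest of the 12. *Psmb3*, a structural subunit of the ring, fell by 0.40 on the log2 scale in HG against NG (SE 0.094, adjusted p = 0.00485), the lowest value among the members, and kept its call in all 21 alternatives. *Psmb4* had 185, 168 and 192 CPM in HG+CD200Fc, 212, 178 and 191 in HG, 205, 206 and 242 in NG+CD200Fc, and 249, 224 and 239 in NG. HG and NG did not overlap, nor did HG+CD200Fc and NG+CD200Fc. *Psmb4*, also structural, was lower in HG (-0.29, SE 0.071, adjusted p = 0.00348) and in HG+CD200Fc than in NG+CD200Fc (-0.26, SE 0.071, adjusted p = 0.0265). The 2 calls differed in stability, since that in HG was kept in all 21 alternatives while that in HG+CD200Fc was lost without HG+CD200Fc replicate 2 or NG+CD200Fc replicate 3 (adjusted p up to 0.192). *Psmb2* also passed in HG (-0.34, adjusted p = 0.0168), and its call was lost without HG replicate 2 or NG replicate 1 or 3 (adjusted p up to 0.0662). *Psmb1* had 115, 112 and 116 CPM in HG+CD200Fc, 140.3, 124 and 122 in HG, 136, 123 and 156 in NG+CD200Fc, and 158, 137 and 146 in NG. *Psmb1* did not pass in HG against NG (-0.19, adjusted p = 0.0582), with HG replicate 1 inside the NG range, and was lower in HG+CD200Fc than in NG+CD200Fc (-0.27, SE 0.073, adjusted p = 0.0228), a call lost without HG+CD200Fc replicate 2 or 3 or NG+CD200Fc replicate 1 or 3, or with the length and GC trend removed (adjusted p up to 0.2).

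Of the 3 catalytic genes 1 passed in HG. *Psmb7* had 79.1, 81.4 and 84.9 CPM in HG+CD200Fc, 91.4, 82.4 and 83.3 in HG, 89.1, 90.4 and 101 in NG+CD200Fc, and 103, 97.4 and 97.5 in NG. *Psmb7*, the trypsin-like subunit, had all HG libraries below all NG libraries and passed (-0.21, SE 0.062, adjusted p = 0.0124), a call lost without HG replicate 2 or NG replicate 1 (adjusted p up to 0.0553). It shares 405 exon bases with *Nek6* on the other strand. *Psmb5* had 59.3, 60.1 and 62.5 CPM in HG+CD200Fc, 70.5, 49.6 and 56.8 in HG, 63.0, 61.6 and 79.2 in NG+CD200Fc, and 80.2, 68.4 and 71.4 in NG. *Psmb5*, the chymotrypsin-like subunit, had a lower mean in HG with a wider spread and did not pass (-0.31, SE 0.12, adjusted p = 0.088), HG replicate 1 reaching the NG range and HG replicate 2 lying lowest. This gene shares 109 exon bases with *Mir686* on the same strand. *Psmb6* had 246, 234 and 249 CPM in HG+CD200Fc, 328, 251 and 292 in HG, 263, 249.8 and 313 in NG+CD200Fc, and 333, 306 and 314 in NG. *Psmb6* overlapped between HG and NG (-0.13, adjusted p = 0.328) and had HG+CD200Fc values all below the HG values (-0.26, SE 0.089, adjusted p = 0.058), which did not pass. In HG+CD200Fc against NG+CD200Fc the 3 catalytic genes gave -0.17 (adjusted p = 0.471) for *Psmb5*, -0.18 (adjusted p = 0.234) for *Psmb6* and -0.19 (adjusted p = 0.05002) for *Psmb7*, none of which passed. The count table also lists pseudogenes of *Psmb5*, *Psmb6*, *Psmb7* and *Psma5*, so the values of these genes are uncertain where reads could be divided among copies.

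Of the 6 base ATPases, *Psmc1*, *Psmc3*, *Psmc4* and *Psmc5* were lower in HG. *Psmc4* had 101, 98.5 and 98.1 CPM in HG+CD200Fc, 105, 87.9 and 96.2 in HG, 107, 105 and 117 in NG+CD200Fc, and 128, 111 and 116 in NG. *Psmc5* had 126, 119 and 117 CPM in HG+CD200Fc, 119, 109 and 112 in HG, 124, 128 and 124 in NG+CD200Fc, and 133, 136 and 133 in NG. In both genes the HG values lay wholly below the NG values, and the NG values of *Psmc5* were the closest together. The log2 fold changes were -0.29 (SE 0.066, adjusted p = 0.00174) for *Psmc4* and -0.24 (SE 0.054, adjusted p = 0.00143) for *Psmc5*, and both calls were kept in all 21 alternatives. The *Psmc1* call (-0.17, adjusted p = 0.0304) was lost without HG replicate 2 or NG replicate 1, or with upper quartile scaling (adjusted p up to 0.14). The *Psmc3* call (-0.20, adjusted p = 0.0114) was lost without HG replicate 2 (adjusted p = 0.0845), and *Psmc3* shares 215 exon bases with *Slc39a13* on the other strand. *Psmc6* had 65.1, 49.8 and 54.9 CPM in HG+CD200Fc, 61.5, 61.3 and 55.7 in HG, 70.2, 64.4 and 72.8 in NG+CD200Fc, and 64.2, 63.7 and 68.0 in NG. The HG values of *Psmc6* were all below the NG values by a small margin without passing (-0.13, adjusted p = 0.214). *Psmc6* was lower in HG+CD200Fc than in NG+CD200Fc (-0.29, SE 0.076, adjusted p = 0.0203), although HG+CD200Fc replicate 1 lay inside the NG+CD200Fc range, and the call was lost without HG+CD200Fc replicate 2 or 3 or NG+CD200Fc replicate 1 or 3 (adjusted p up to 0.177). *Psmc2* was the steadiest ATPase gene, at -0.086 (SE 0.051, adjusted p = 0.233) in HG against NG without passing.

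Among the other base genes, *Psmd1*, a large scaffold subunit that docks ubiquitin-handling proteins, was lower in HG, and the companion scaffold *Psmd2* and the ubiquitin receptor *Psmd4* did not pass. *Psmd1* had 209.5, 188 and 196 CPM in HG+CD200Fc, 179, 178 and 176 in HG, 209, 198 and 209.8 in NG+CD200Fc, and 208, 199 and 205 in NG. The 3 HG values were lower than all 9 values of the other groups. *Psmd1* gave -0.20 (SE 0.053, adjusted p = 0.00594) in HG against NG and 0.16 (SE 0.053, adjusted p = 0.0394) in HG+CD200Fc against HG. The call in HG against NG was kept in all 21 alternatives, and that in HG+CD200Fc against HG was lost in 9 of 21 alternatives, without HG+CD200Fc replicate 1 or 3, any of the HG libraries or NG replicate 2 or 3, or with no filter on low counts or only the groups compared in the fit (adjusted p up to 0.212). *Psmd1* shares 553 exon bases with *Gm21972* and *Htr2b*. *Psmd2* had 303, 309 and 312 CPM in HG+CD200Fc, 318, 289 and 313 in HG, 301, 314 and 324 in NG+CD200Fc, and 330.4, 319.9 and 323 in NG. The HG values of *Psmd2* lay just below the NG values, and the difference of -0.081 (adjusted p = 0.271) did not pass. *Psmd4* had 218, 209 and 207 CPM in HG+CD200Fc, 225, 186 and 212 in HG, 226, 223 and 237 in NG+CD200Fc, and 229.8, 219 and 239 in NG. HG replicate 2 was the lowest *Psmd4* value, and the log2 fold changes were -0.14 (adjusted p = 0.0867) in HG against NG, -0.11 (adjusted p = 0.262) in HG+CD200Fc against NG+CD200Fc and 0.025 (adjusted p = 0.842) in HG+CD200Fc against HG.

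Of the 8 lid genes *Psmd3*, *Psmd6*, *Psmd7*, *Psmd11*, *Psmd12* and *Psmd13* were lower in HG than in NG. *Psmd12* had 109, 103 and 104 CPM in HG+CD200Fc, 109, 102 and 93.8 in HG, 122, 110.5 and 122 in NG+CD200Fc, and 128, 120.4 and 122 in NG. All HG values of *Psmd12*, a structural lid subunit, were below all NG values, and its adjusted p was the smallest among the members in this comparison (-0.28, SE 0.061, adjusted p = 0.00124). *Psmd7* had 120.3, 114 and 112 CPM in HG+CD200Fc, 116, 104 and 106 in HG, 124, 119 and 121 in NG+CD200Fc, and 137, 125 and 129 in NG. *Psmd7*, the inactive partner of the deubiquitinase Psmd14, also had no overlap between HG and NG (-0.26, SE 0.058, adjusted p = 0.00149). *Psmd6* had 43.0, 46.6 and 49.4 CPM in HG+CD200Fc, 53.2, 45.3 and 43.2 in HG, 56.5, 52.0 and 62.3 in NG+CD200Fc, and 61.7, 53.4 and 59.7 in NG. *Psmd6* was the lid gene with the largest fall in HG (-0.30, SE 0.082, adjusted p = 0.00744) and was lower in HG+CD200Fc than in NG+CD200Fc (-0.30, SE 0.082, adjusted p = 0.0232), where the call was lost without HG+CD200Fc replicate 1 or 2 or NG+CD200Fc replicate 1 or 3, or with the length and GC trend removed (adjusted p up to 0.17). The HG against NG calls of *Psmd6*, *Psmd7*, *Psmd11* and *Psmd12* were kept in all 21 alternatives. That of *Psmd13* (-0.22, adjusted p = 0.0287) was lost without HG replicate 2 or 3 or NG replicate 1 (adjusted p up to 0.169), and *Psmd13* shares 342 exon bases with *Sirt3* on the other strand. *Psmd14* had 108, 96.9 and 105 CPM in HG+CD200Fc, 116, 110.2 and 105 in HG, 116, 109.8 and 127 in NG+CD200Fc, and 131, 115 and 124 in NG. For *Psmd14*, the lid deubiquitinase, HG replicate 1 lay just above NG replicate 2, and the value of -0.16 (SE 0.064, adjusted p = 0.0706) did not pass. It gave -0.18 (adjusted p = 0.0752) in HG+CD200Fc against NG+CD200Fc and -0.095 (adjusted p = 0.366) in HG+CD200Fc against HG.

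*Psmd3*, *Psmd8* and *Psmd11*, also structural lid subunits, followed other patterns. *Psmd3* had 234, 259.5 and 248 CPM in HG+CD200Fc, 199, 186 and 193 in HG, 219, 226 and 207 in NG+CD200Fc, and 217, 215 and 214 in NG. The HG+CD200Fc values of *Psmd3* were above all 9 others and the HG values below all 9 others. This gene shares 17 exon bases with *Gm12356* on the other strand. *Psmd3* was lower in HG than in NG (-0.16, SE 0.054, adjusted p = 0.0286), higher in HG+CD200Fc than in HG (0.36, SE 0.054, adjusted p = 1.78e-05), and higher in HG+CD200Fc than in NG+CD200Fc (0.19, SE 0.054, adjusted p = 0.0305). The rise in HG+CD200Fc over HG was kept in all 21 alternatives, whereas the HG against NG call was lost without HG replicate 2 or NG replicate 1 or 2, or with upper quartile scaling (adjusted p up to 0.0955). The HG+CD200Fc against NG+CD200Fc call was lost in 10 of 21 alternatives, without HG+CD200Fc replicate 2 or 3, HG replicate 3, NG+CD200Fc replicate 1 or 3 or NG replicate 1 or 3, or with no filter on low counts, only the groups compared in the fit or the length and GC trend removed (adjusted p up to 0.347). *Psmd11* had 179, 186 and 176 CPM in HG+CD200Fc, 156, 156 and 152 in HG, 183, 177 and 176 in NG+CD200Fc, and 177, 170.3 and 178 in NG. *Psmd11*, which in yeast clamps the lid to the core, had its 3 HG values below all 9 others. *Psmd11* gave -0.18 (SE 0.051, adjusted p = 0.0106) in HG against NG and 0.22 (SE 0.051, adjusted p = 0.00246) in HG+CD200Fc against HG, where the call was also kept in all 21 alternatives. *Psmd8* had 271, 248 and 250.4 CPM in HG+CD200Fc, 357, 310.5 and 322 in HG, 304, 297 and 328 in NG+CD200Fc, and 335, 323 and 329 in NG. The HG+CD200Fc values of *Psmd8* were below all 9 others, while HG and NG overlapped. *Psmd8* did not pass in HG against NG (0.0025, adjusted p = 0.982), and was lower in HG+CD200Fc than in HG (-0.36, SE 0.058, adjusted p = 4.00e-05) and than in NG+CD200Fc (-0.27, SE 0.058, adjusted p = 0.00577). The call against HG was kept in all 21 alternatives, and that against NG+CD200Fc was lost without HG+CD200Fc replicate 2 (adjusted p = 0.0562).

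**Figure D3:**
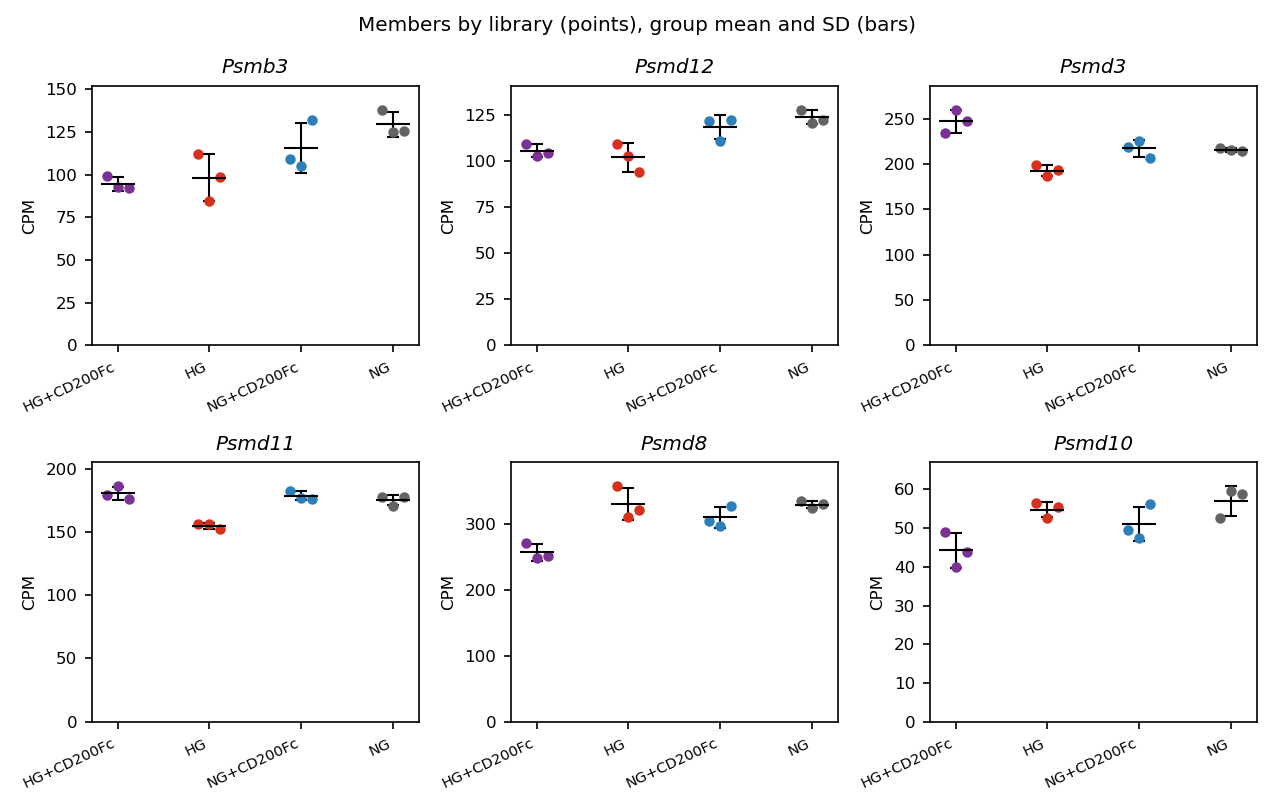
CPM of 6 members in each library (points) with the group mean and SD (bars), for HG+CD200Fc, HG, NG+CD200Fc and NG from left to right, on axes that start at 0. In *Psmb3* and *Psmd12* the HG points lie below the NG points, *Psmd3* and *Psmd11* dip in HG alone, and *Psmd8* and *Psmd10* have their lowest means in HG+CD200Fc.

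Of the 3 assembly chaperone genes, *Psmd5* and *Psmd9* were lower in HG than in NG. *Psmd5* had 63.2, 52.6 and 64.3 CPM in HG+CD200Fc, 62.0, 55.4 and 53.1 in HG, 63.2, 60.6 and 72.3 in NG+CD200Fc, and 66.5, 69.0 and 70.5 in NG. The HG and NG values of *Psmd5* did not overlap (-0.27, SE 0.077, adjusted p = 0.0104), and the call was lost without HG replicate 3 (adjusted p = 0.0528). *Psmd9* passed as well (-0.25, adjusted p = 0.0154), with a call lost without HG replicate 2 or NG replicate 1 (adjusted p up to 0.0769), and shares 1849 exon bases with *Gm26745* on the other strand. *Psmd10* had 49.0, 40.0 and 43.8 CPM in HG+CD200Fc, 56.4, 52.5 and 55.5 in HG, 49.6, 47.5 and 56.1 in NG+CD200Fc, and 52.6, 59.5 and 58.9 in NG. *Psmd10*, known as gankyrin, overlapped between HG and NG (-0.058, adjusted p = 0.63), and all HG+CD200Fc values were below all HG values. It was lower in HG+CD200Fc than in HG (-0.31, SE 0.077, adjusted p = 0.00546), a call lost without HG+CD200Fc replicate 2, or with the length and GC trend removed (adjusted p up to 0.0573).

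The next comparison set high against normal glucose with CD200Fc in both. Its libraries enter HG against NG only through the shared filter, scaling and estimate of spread. The direction was mostly the same and far fewer genes passed. In HG+CD200Fc against NG+CD200Fc, 6 of 34 members were lower (*Psma7*, *Psmb1*, *Psmb4*, *Psmc6*, *Psmd6* and *Psmd8*) and 1 was higher (*Psmd3*), by edgeR's quasi-likelihood test with Benjamini-Hochberg adjustment. Over all genes 3.65% were lower, 4.65% higher and 8.3% either. The log2 fold changes of the 6 lower members ran from -0.30 to -0.25. The median over the members was -0.17, against -0.00055 over all genes, and 32 of 34 lay below zero. All 3 HG+CD200Fc libraries were below all 3 NG+CD200Fc libraries in 20 members, against 14.2% of all genes, and above in 1, against 13%.

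The number of members called in HG+CD200Fc against NG+CD200Fc depended heavily on single libraries. From 7 in either direction it became 0 without HG+CD200Fc replicate 2 (with 15 members at an unadjusted p under 0.05), 3 without HG+CD200Fc replicate 3, 2 without NG+CD200Fc replicate 1, 1 without NG+CD200Fc replicate 3 and 19 without NG+CD200Fc replicate 2. The count over all genes moved as well, from 1593 to 277, 646, 665, 344 and 2288 in the same order. Without HG+CD200Fc replicate 2, 3279 of 19903 genes had an unadjusted p under 0.05. Leaving out HG replicate 1 or HG replicate 2, which are in neither group compared, gave 14 and 12 members, and 1920 and 1869 of all genes. Each of these fits also redid the filter, the scaling and the adjustment, with 19827 and 19780 genes tested against 19182. The count of members was 13 with DESeq2, 14 with voom, 14 with no filter on low counts and 4 with the length and GC trend removed. The same settings called 2134, 2597, 1981 and 1080 of all genes. NG+CD200Fc replicate 3 had a summed member level of 5069 CPM, against 4701 and 4564 CPM in the other NG+CD200Fc libraries. The split of all genes into higher and lower also moved with the scaling, at 892 and 701 under TMM, 1115 and 494 under upper quartile scaling, and 424 and 656 with the trend removed.

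The third comparison asked what CD200Fc did in high glucose. In HG+CD200Fc against HG the members as a group did not move in 1 direction: 3 of 34 were higher (*Psmd1*, *Psmd3* and *Psmd11*) and 2 lower (*Psmd8* and *Psmd10*), against 9.46% higher, 8.3% lower and 17.8% in either direction over all genes. None of the 14 core particle genes passed by edgeR's quasi-likelihood test with Benjamini-Hochberg adjustment, and the 5 that passed were 3 lid genes, 1 base scaffold gene and 1 chaperone gene. The rises were 11.4 to 28.2%, and the changes of the lower ones -22.2 and -19.1%. The HG+CD200Fc libraries were all above the HG libraries in 3 members, against 15.3% of all genes, and all below in 5, against 16%. The median was -0.031 over members and -0.021 over all genes. It became 0.040 with the length and GC trend removed and 0.048 without HG replicate 1, so its sign changed. HG enters this comparison and HG against NG on opposite sides, so the 2 values of *Psmd1*, *Psmd3* and *Psmd11* given above rest in part on the same libraries.

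**Figure D4:**
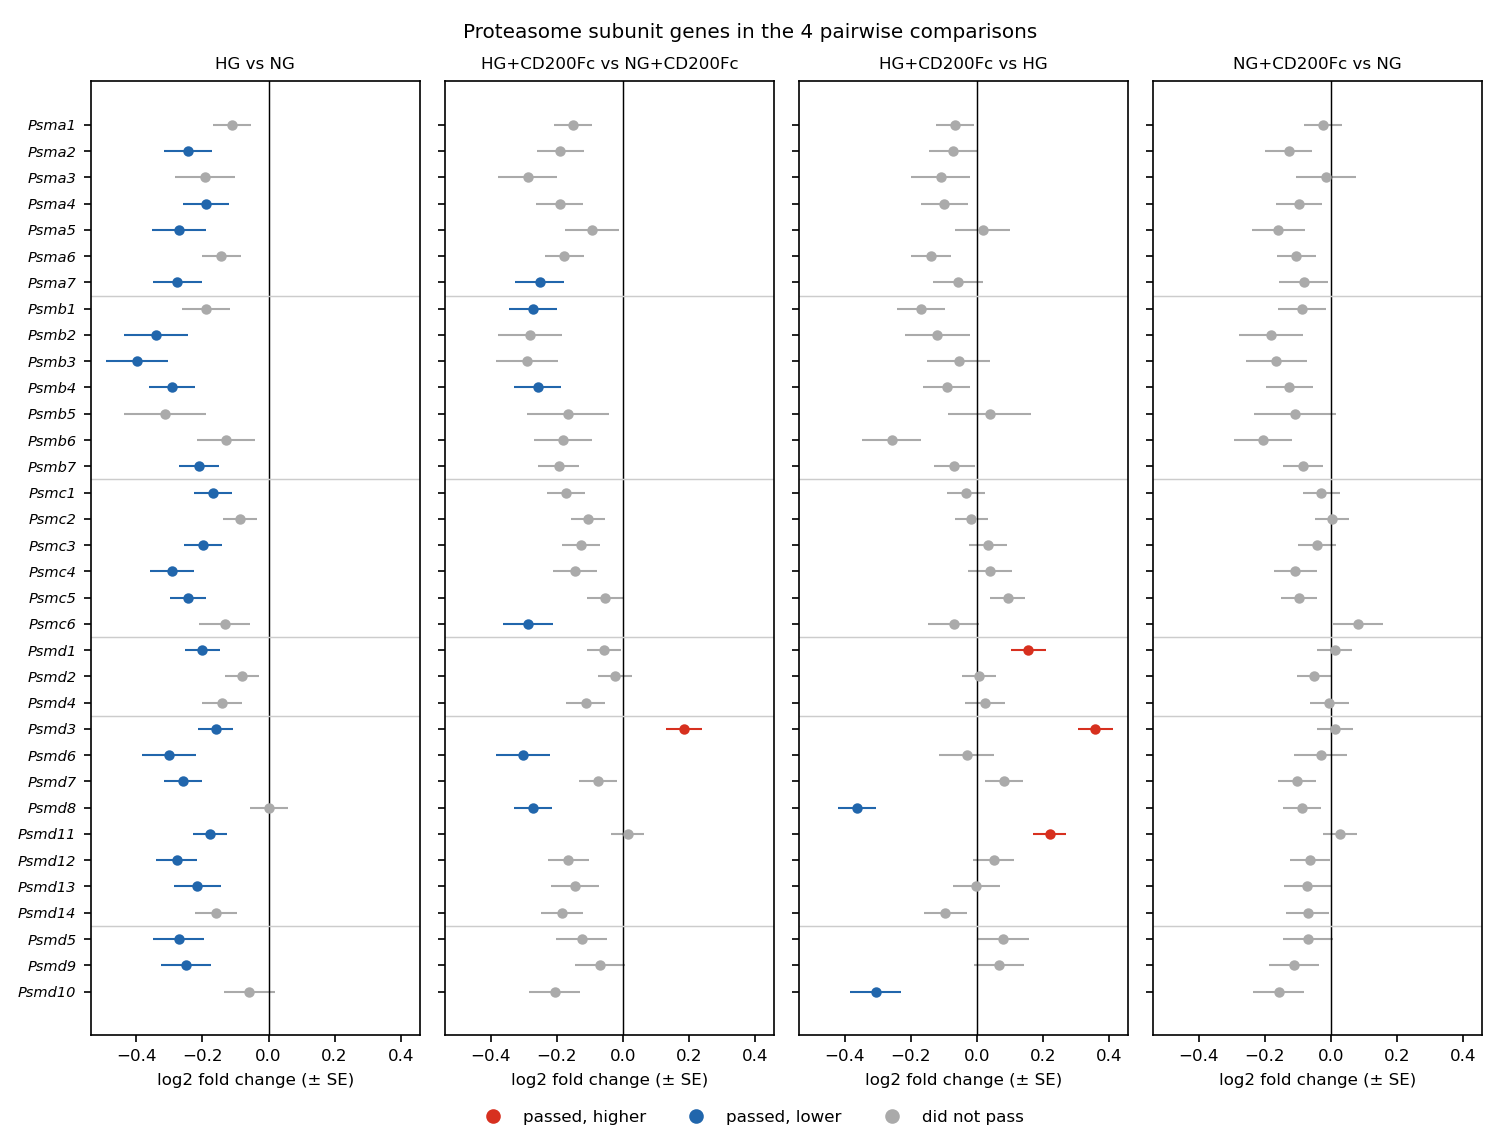
log2 fold change of each tested member with its standard error in the 4 pairwise comparisons, coloured red or blue where the member passed as higher or lower. In HG vs NG 21 members are blue, in HG+CD200Fc vs HG 3 are red and 2 blue, and in NG+CD200Fc vs NG every member is grey.

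The effect of CD200Fc in normal glucose was compared next, and no member passed. In NG+CD200Fc against NG, 0 of 34 members and 0 of 19182 genes (0%) passed with edgeR's quasi-likelihood test, and at an unadjusted p under 0.05 there were 2 members and 1147 genes. DESeq2 called 0 genes and voom 1, and neither called a member. The median over members was -0.084, against -0.00033 over all genes, with 29 of 34 below zero. The NG+CD200Fc libraries were all below the NG libraries in 2 members, against 6.16% of all genes, and all above in 0, against 5.71%. The members nearest to passing were *Psmb6* at -0.21 (adjusted p = 0.816), *Psmd10* at -0.16 (adjusted p = 0.816) and *Psma5* at -0.16 (adjusted p = 0.816) in edgeR's quasi-likelihood test. Without NG+CD200Fc replicate 3 the median was -0.14 and 17 members had an unadjusted p under 0.05, still with 0 passing. Over all genes in that fit the median was -0.013, and 2193 of 19896 had an unadjusted p under 0.05.

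The effect of CD200Fc differed between glucose levels in 2 members by the interaction term of the same edgeR model, against 7.2% of all genes, 3.62% with a positive and 3.58% with a negative difference. The CD200Fc change of *Psmd3* was 0.36 in high glucose and 0.012 in normal glucose, a difference of 0.35 (SE 0.076, adjusted p = 0.00411), and this call was kept in all 20 alternatives. That of *Psmd8* was -0.36 in high glucose and -0.088 in normal glucose, a difference of -0.27 (SE 0.081, adjusted p = 0.0375). The *Psmd8* call was lost in 9 of 20 alternatives, without HG+CD200Fc replicate 2 or 3, HG replicate 1 or 3, NG+CD200Fc replicate 1 or 3 or any of the NG libraries (adjusted p up to 0.141). With the length and GC trend removed 4 of 34 members had such a difference, against 1873 of 19182 genes. *Psmd11* had the next smallest p, with a difference of 0.19 (SE 0.072, adjusted p = 0.113), which did not pass.

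Summed over the members, the level was 4331 ± 104 CPM in HG+CD200Fc, 4423 ± 315 in HG, 4778 ± 261 in NG+CD200Fc and 5022 ± 168 in NG (SD, n = 3 each). The core particle genes summed to 1573 ± 51.8 CPM in HG+CD200Fc, 1700.4 ± 172 in HG, 1829 ± 176 in NG+CD200Fc and 1988 ± 99.5 in NG. The regulatory particle genes summed to 2618 ± 46.1 CPM in HG+CD200Fc, 2578 ± 135 in HG, 2795 ± 71.5 in NG+CD200Fc and 2868 ± 72.5 in NG. In both sums every HG+CD200Fc library lay below every NG+CD200Fc and NG library. For the core, HG replicate 1, at 1889.6 CPM, lay just above NG replicate 2, at 1888 CPM.

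**Figure D5:**
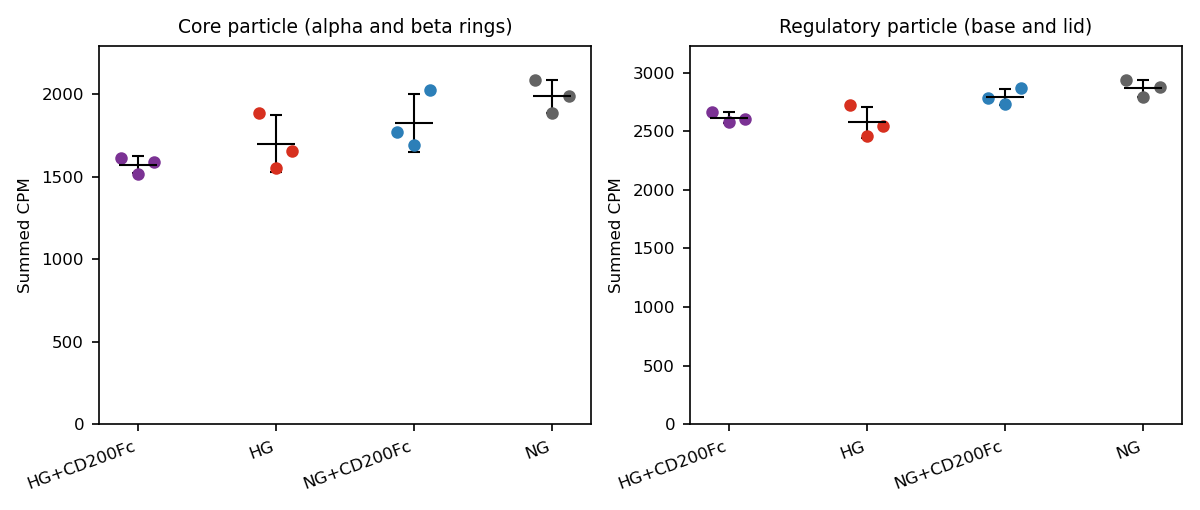
Summed CPM of the core particle genes (left) and of the regulatory particle genes (right) in each library (points), with the group mean and SD (bars), for HG+CD200Fc, HG, NG+CD200Fc and NG. The HG+CD200Fc libraries lie below all NG+CD200Fc and NG libraries, and HG replicate 1 and NG+CD200Fc replicate 3 are the highest libraries of their groups.

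Genes that work with the constitutive subunits were read from the same fit, with the shares over all genes as given above. The core assembly chaperone genes were lower in HG in 4 of 5: *Psmg4* (-0.55, adjusted p = 0.000427), *Psmg1* (-0.38, adjusted p = 0.013), *Psmg2* (-0.35, adjusted p = 0.00718) and *Pomp* (-0.27, adjusted p = 0.0048), and 1 of 5, *Psmg2* (-0.35, adjusted p = 0.0202), was lower in HG+CD200Fc than in NG+CD200Fc. The *Psmg1* call was lost without HG replicate 2 or NG replicate 1 (adjusted p up to 0.0887), and the *Psmg2* call in HG+CD200Fc against NG+CD200Fc was lost without any of the HG+CD200Fc libraries or NG+CD200Fc replicate 1 or 3, or with the length and GC trend removed (adjusted p up to 0.11). *Psmg4* had 21.7, 20.9 and 20.5 CPM in HG+CD200Fc, 23.8, 15.8 and 20.9 in HG, 24.4, 26.8 and 28.4 in NG+CD200Fc, and 31.3, 27.2 and 30.3 in NG. All HG values of *Psmg4*, which helps pair alpha subunits, were below all NG values. None of the 5 passed in HG+CD200Fc against HG.

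The inducible immunoproteasome genes, which replace the 3 catalytic subunits, are described next. *Psmb9* had 10.5, 9.95 and 11.4 CPM in HG+CD200Fc, 22.2, 17.1 and 18.2 in HG, 11.8, 13.0 and 13.5 in NG+CD200Fc, and 12.2, 13.2 and 12.8 in NG. *Psmb9* was highest in HG, with no overlap with any other group. It was higher in HG than in NG (0.59, SE 0.11, adjusted p = 0.000256), and *Psmb8* (0.15, adjusted p = 0.191) and *Psmb10* (0.17, adjusted p = 0.237) did not pass. All 3 were lower in HG+CD200Fc than in HG, with log2 fold changes of -0.85 (SE 0.11, adjusted p = 3.36e-06) for *Psmb9*, -0.47 (SE 0.082, adjusted p = 0.000111) for *Psmb8* and -0.51 (SE 0.10, adjusted p = 0.000977) for *Psmb10*, while their constitutive counterparts *Psmb6*, *Psmb5* and *Psmb7* did not pass. None of the 3 passed in HG+CD200Fc against NG+CD200Fc. Among the genes of the activator caps, *Psme1*, an interferon-inducible cap subunit, was higher in HG than in NG (0.27, adjusted p = 0.00233) and lower in HG+CD200Fc than in HG (-0.36, adjusted p = 0.000186), *Psme2* was lower in HG+CD200Fc than in HG (-0.61, adjusted p = 0.000288), and *Psme3*, the nuclear cap, was lower in HG than in NG (-0.32, adjusted p = 4.78e-05) and higher in HG+CD200Fc than in HG (0.26, adjusted p = 0.00074). *Psme4* and the inhibitor gene *Psmf1* passed in neither.

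Of 14 genes outside the symbol rule for factors that bind the proteasome or belong to it, 8 were lower and 0 higher in HG than in NG, with a median of -0.20. They included *Txnl1* (-0.39, adjusted p = 0.000343), the shuttle *Rad23b* (-0.25, adjusted p = 0.000528), the deubiquitinase *Usp14* (-0.28, adjusted p = 0.00182) and the shuttle *Ubqln1* (-0.21, adjusted p = 0.00295). The *Sem1* call (-0.23, adjusted p = 0.0473) was lost in 11 of 21 alternatives (adjusted p up to 0.223), and that of *Ube3c* in 3. In HG+CD200Fc against HG 7 of 14 were higher and 0 lower, with a median of 0.17, with the smallest p in *Ubqln1* (0.32, adjusted p = 2.84e-05), *Ubqln4* (0.28, adjusted p = 0.000454), the ubiquitin receptor *Adrm1* (0.31, adjusted p = 0.000535) and *Ubqln2* (0.29, adjusted p = 0.00168). Both counts share the HG libraries. None of the 14 passed in HG+CD200Fc against NG+CD200Fc.

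The authors' deposited table, with 15372 genes and its own model, listed 34 members. At a false discovery rate under 0.05 the authors' deposited table had 19 members lower and 0 higher in HG against NG (15.9% lower and 15.9% higher over its genes). For HG+CD200Fc against HG the authors' deposited table had 2 higher and 3 lower (11.5 and 11.1%), and for NG+CD200Fc against NG it had 0 (0%). For HG+CD200Fc against NG the authors' deposited table had 1 higher and 21 lower (12.8 and 13.2%).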

How the data were processed

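RNA depleted of ribosomal RNA was sequenced from 12 libraries of BV2 cells, 3 in each of 4 groups, grouped by the treatment in the labels. The deposited table holds raw counts per gene; the submitters' processing notes name STAR, Subread featureCounts, Salmon, edgeR, limma and the mouse build GRCm38, in no stated order, and neither the annotation release nor a strand setting is given in the sources used here. A second deposited table holds the authors' log2 fold changes and p-values with false discovery rates. It was used for its calls and for a check of the members' counts, of which 408 of 408 were equal in both tables.

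Of 55774 lines 287 repeated a gene and were dropped, leaving 55487 genes. Genes kept by filterByExpr (19182) were fitted in edgeR 4.0.16 (R 4.3.3) with TMM scaling and the quasi-likelihood test over all 12 libraries in 4 groups. P-values were adjusted by Benjamini-Hochberg over all genes tested in each comparison, at 0.05. The scripts were tested on simulated data. Totals were 21454087 to 31905649 counts per library, and the biological coefficient of variation was 0.0908. CPM are scaled by TMM, and levels between genes are CPM per kb of exon.

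The alternatives were DESeq2 size factors, upper quartile scaling, no filter, a stricter filter (3 libraries with 10 counts and 1 CPM or more), limma 3.58.1 with voom quality weights, DESeq2 1.42.0, only the groups compared, a replicate block, removal of a trend on exon length and GC content, and leaving out each library. Values in every library are given, for each role and comparison, for the members with the smallest p and the largest change, and the others by range and count. The members and gene lists were chosen with earlier results of these data known.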

Additional observations from a re-analysis of the deposited data

Results flagged for a closer look

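Each gene here was singled out because its response to CD200Fc differed between high and normal glucose, tested as the interaction term of the edgeR quasi-likelihood model with Benjamini-Hochberg adjustment over all genes. The difference is the log2 change in HG+CD200Fc over HG minus that in NG+CD200Fc over NG. Over all genes 7.2% passed in this test, and 2 of the 34 tested members did. No explanation was tested.

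Among the subunit genes the difference was 0.35 for *Psmd3* (adjusted p = 0.00411) and -0.27 for *Psmd8* (adjusted p = 0.0375). Among the partner genes it was -0.86 for the immunoproteasome gene *Psmb9* (adjusted p = 0.000858), -0.34 for the cap gene *Psme1* (adjusted p = 0.0215) and 0.28 for the nuclear cap gene *Psme3* (adjusted p = 0.016). For factors that bind the proteasome or belong to it, the difference was 0.30 for *Adrm1* (adjusted p = 0.0347), 0.35 for *Ubqln1* (adjusted p = 0.00178) and 0.25 for *Ubqln4* (adjusted p = 0.0487). For genes around Nrf1 and Nrf2 it was 0.24 for *Nploc4* (adjusted p = 0.0471) and 0.29 for *Keap1* (adjusted p = 0.0294).

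The *Psmd3*, *Psmb9* and *Ubqln1* calls were kept in all 20 alternatives. Those of the other 7 genes were lost in some, mostly on leaving out 1 library. The *Psme3* call was lost in 2 of 20 alternatives, without NG replicate 1 or 3 (adjusted p up to 0.0574). The *Psme1* call was lost in 7 of 20 alternatives, without HG+CD200Fc replicate 2 or 3, HG replicate 1 or 3, NG+CD200Fc replicate 3 or NG replicate 2 or 3 (adjusted p up to 0.0911). The *Adrm1* call was lost in 7 of 20 alternatives, without HG+CD200Fc replicate 2 or 3, HG replicate 2, NG+CD200Fc replicate 1 or 3 or NG replicate 1 or 3 (adjusted p up to 0.116). For *Keap1* it was lost in 7 of 20 alternatives, without HG+CD200Fc replicate 2 or 3, HG replicate 2, NG+CD200Fc replicate 1 or 3 or NG replicate 1 or 3 (adjusted p up to 0.0794). For *Ubqln4* it was lost in 12 of 20 alternatives, without HG+CD200Fc replicate 2 or 3, HG replicate 1 or 3, NG+CD200Fc replicate 1 or 3 or any of the NG libraries, or with upper quartile scaling, no filter on low counts or a stricter filter (adjusted p up to 0.121). For *Nploc4* it was lost in 13 of 20 alternatives, without any of the HG+CD200Fc libraries, HG replicate 1 or 2, any of the NG+CD200Fc libraries or any of the NG libraries, or with no filter on low counts or limma voom (adjusted p up to 0.121). For *Psmd8* the losses are given above with its interaction value.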

How the results depend on the processing

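For the HG against NG comparison 10 to 28 members passed and the members' median ran from -0.29 to -0.17 when 1 library was left out. The count of all genes, 4720 as reported, ran from 3326 to 5045 in these fits. For HG+CD200Fc against NG+CD200Fc the count of members, 7 as reported, was 14 with no filter on low counts, 13 with DESeq2, 14 with limma voom, 4 with the length and GC trend removed and 0 to 19 with 1 library left out, and the count of all genes, 1593 as reported, was 2597 with voom and 277 to 2288 with 1 library left out. For NG+CD200Fc against NG the count of all genes, 0 as reported, was 21 with no filter, 1 with voom, 9 with only the groups compared and 0 to 8 with 1 library left out, and 0 members passed in each. For the interaction the count of members, 2 as reported, was 4 with the trend removed and 1 to 2 with 1 library left out, where the median ran from -0.022 to 0.13. The trend removal also split the all-gene interaction calls into 1131 positive and 742 negative, against 694 and 687 without it. Replicate numbers are shared between groups, and same-numbered libraries deviated together in some pairs but not in most. Their correlation ran from -0.069 to 0.18, with 5 of 18 pairs over 0.1, so the numbers were not taken as pairs, and 7 of 12 libraries correlated best with their own number. A replicate block gave 17 members for HG+CD200Fc against NG+CD200Fc, 27 for HG against NG, 6 for HG+CD200Fc against HG, 2 for the interaction, and 2 genes in all for NG+CD200Fc against NG. With the block, 2314 of all genes passed for HG+CD200Fc against NG+CD200Fc, 5258 for HG against NG, 3842 for HG+CD200Fc against HG and 1723 for the interaction. No passing member or named partner gene changed sign in an alternative, while medians near zero did: that of HG+CD200Fc against HG, as given above, and that of the interaction, which was -0.022 without HG replicate 2 against 0.046 as reported. Of the values of named genes over the alternatives, 3279 kept their side of the threshold, 135 lost a call and 167 gained one. Another 4 passed in neither fit and changed sign by at least their SE. The cause of these shifts was not tested. With 3 libraries a group, small differences in single members may be missed.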

Other observations

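*Nfe2l1* encodes Nrf1, the transcription factor that drives subunit genes when proteasome activity is short. *Nfe2l1* had 408, 428 and 412 CPM in HG+CD200Fc, 426, 427 and 412 in HG, 363, 377 and 372 in NG+CD200Fc, and 334, 362 and 372 in NG. All HG values were above all NG values, as in 19.9% of all genes. Of the 34 tested members, 21 had all HG values below all NG values, against 19.8% of all genes. A link between these values was not tested. *Nfe2l1* was higher in HG than in NG (0.25, SE 0.051, adjusted p = 0.000692) by edgeR's quasi-likelihood test with Benjamini-Hochberg adjustment, a call kept in all 21 alternatives. It was also higher in HG+CD200Fc than in NG+CD200Fc (0.17, SE 0.051, adjusted p = 0.0426), a call lost in 13 of 21 alternatives, without any of the HG+CD200Fc libraries, HG replicate 3, any of the NG+CD200Fc libraries or any of the NG libraries, or with no filter on low counts, only the groups compared in the fit or the length and GC trend removed (adjusted p up to 0.338). *Syvn1*, the membrane ubiquitin ligase that turns over Nrf1, was higher in HG than in NG (0.47, adjusted p = 1.04e-05) and in HG+CD200Fc than in NG+CD200Fc (0.30, adjusted p = 0.00717), the second call being lost without NG+CD200Fc replicate 3, or with the length and GC trend removed (adjusted p up to 0.0759). Of the 12 genes around Nrf1 and Nrf2, 2 were higher and 3 lower in HG than in NG, against 11.7% higher and 12.9% lower over all genes. The lower ones were *Keap1*, *Mafk* and *Nploc4*, and each of these calls was lost without HG replicate 2 and also without NG replicate 3. In HG+CD200Fc against HG 5 were higher and 1 lower, against 9.46% and 8.3% over all genes, and both counts share the HG libraries. The higher genes were *Nploc4* (0.26, adjusted p = 0.000525), *Mafg* (0.27, adjusted p = 0.00144), *Keap1* (0.26, adjusted p = 0.00193), *Mafk* (0.22, adjusted p = 0.00735) and the protease gene *Ddi2* (0.19, adjusted p = 0.0144), which is needed to activate Nrf1 and whose call was lost without HG+CD200Fc replicate 2 (adjusted p = 0.0767). *Nfe2l2*, which encodes Nrf2, was the lower one (-0.19, SE 0.055, adjusted p = 0.0145), a call lost without HG+CD200Fc replicate 2 or 3 or HG replicate 1, or with the length and GC trend removed (adjusted p up to 0.11).

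Of 6 genes for ubiquitin and its activating enzymes, *Rps27a*, which encodes ubiquitin fused to a ribosomal protein, was lower in HG than in NG (-0.27, adjusted p = 0.0119) and in HG+CD200Fc than in NG+CD200Fc (-0.36, adjusted p = 0.00689). Its first call was lost without HG replicate 2 or 3 or NG replicate 1 (adjusted p up to 0.0832), and its second was lost without HG+CD200Fc replicate 2 (adjusted p = 0.0676). The main activating enzyme gene *Uba1* gave -0.051 (adjusted p = 0.494) in HG against NG and 0.039 (adjusted p = 0.673) in HG+CD200Fc against HG. *Uba6* was lower in HG+CD200Fc than in HG (-0.26, adjusted p = 0.0181), a call lost without HG+CD200Fc replicate 2 or HG replicate 1 or 2, or with limma voom (adjusted p up to 0.125).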
